A study of Mus musculus with 23 samples.

Results

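The collagen genes of the mouse were followed through a series that tested how little material a sequencing library can be made from. Every row of the deposited gene table whose symbol has the form of a collagen chain (Col, a type number, the letter a and a chain number) was taken, which gave 44 genes of the 22488 symbols listed. RNA was read in 23 libraries made by EASY-RNAseq, in which oligo-dT primes cDNA on poly(A) tails and the Tn5 transposase then cuts the double strand and adds adapters. One material was CD3+ T cells of the spleen at 100, 500, 1000 or 10000 cells per library (n = 3 each). The other was purified RNA at 0.1 ng (n = 2) or at 0.5, 1 or 5 ng (n = 3 each). All groups carry the strain label C57 and an age label of 6 to 18 weeks, and none is labelled with a mutation or a treatment. The series' design places the purified RNA in the mouse spleen, while its sample labels name raw 264.7, a macrophage-like cell line. Whether replicates are separate mice, sorts or dilutions is not in the labels, and p-values then measure only the spread between these libraries, which may be technical.

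Collagens are trimeric proteins built from chains with long glycine-rich repeats, and the 44 genes encode the chains of many types. Fibrillar collagens form the banded fibrils of connective tissue, collagen IV forms the sheet of basement membranes, and collagen VI forms beaded microfibrils. Fibril-associated collagens sit on the surface of fibrils, and transmembrane collagens are anchored in the plasma membrane. In the spleen, collagens are known as products of reticular fibroblasts, smooth muscle and endothelium, whose fibres carry the white pulp. Lymphocytes are not known as collagen producers. The comparator for background is the olfactory receptor family, 1134 Olfr genes in the table, which are expressed mainly in the nose.

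Totals ran from 1737067 to 7908638 counts per library. Marker genes set the materials apart. B cell markers summed to 35585.5 CPM (counts scaled to the library total) in 5 ng RNA and to 1195.4 in 10000 T cells, with all 7 lower in the T cells. Neutrophil markers (4594.4 against 38.3 CPM) and erythroid markers (4063.1 against 51.8 CPM) were lower in the T cells for all 6 members of each list. All 9 T cell markers were higher in the T cells, at 6305.3 against 1497.2 CPM. The purified RNA thus held transcripts of B cells, neutrophils, red cell precursors and T cells along with those of macrophages, whose markers summed to 2507.8 CPM at 5 ng. That is a wider mix of cell types than the single cell line its sample labels name. Read against the library total alone, stromal markers were low in both. The 11 fibroblast and reticular genes summed to 19.7 CPM in 5 ng RNA, where Ccl19 had no count, and to 29.8 CPM in 10000 T cells, where Ccl21a had none. Their level against background is given with the matrix genes below. Replicate 3 at 100 cells held other cells' transcripts, with B cell markers at 13649.6 CPM against 886 CPM in the lowest library of that group.

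Collagen genes took a small share of every library, and a larger one in T cells than in RNA when read against the library total. The 44 genes summed to 557, 518 and 415 CPM at 100 cells, 544, 483 and 499 at 500, 368, 390 and 362 at 1000, and 340, 362 and 359 at 10000. In purified RNA they summed to 341 and 264 CPM at 0.1 ng, 153, 138 and 152 at 0.5 ng, 161, 149 and 156 at 1 ng, and 150, 163 and 161 at 5 ng. Every T cell library lay above every RNA library from 0.5 ng up. The mean was 354 ± 11.7 CPM at 10000 cells and 158 ± 7.22 CPM at 5 ng (SD, n = 3).

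The olfactory receptor genes moved the same way and much further. Their level, taken as summed CPM over summed exon length, was 0.653 ± 0.0119 CPM per kb of exon at 10000 cells and 0.0388 ± 0.00263 at 5 ng (n = 3). It was 0.856 ± 0.155 at 100 cells, 0.883 ± 0.0219 at 500 and 0.683 ± 0.00802 at 1000. In RNA it was 0.296 ± 0.0171 at 0.1 ng (n = 2), 0.0562 ± 0.00254 at 0.5 ng and 0.0366 ± 0.00402 at 1 ng. Between 88% and 90.4% of Olfr genes had a count in the libraries of 10000 cells, against 24.1% to 25% in the deeper libraries of 5 ng. Subtracting the Olfr level times each gene's exon length left a mean of 126 CPM of collagen at 10000 cells and 144 CPM at 5 ng. The T cell mean then lay below the RNA mean. The spread of these remainders is not given here, and the sums before subtraction had SDs of 11.7 and 7.22 CPM, so a turned order is not shown. The subtraction left 135 and 143 CPM at 1000 cells and 1 ng, and 199 in each of the smallest inputs. At 500 cells and 0.5 ng it left 201 and 128 CPM, where the T cell mean stayed above.

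**Figure D1:**
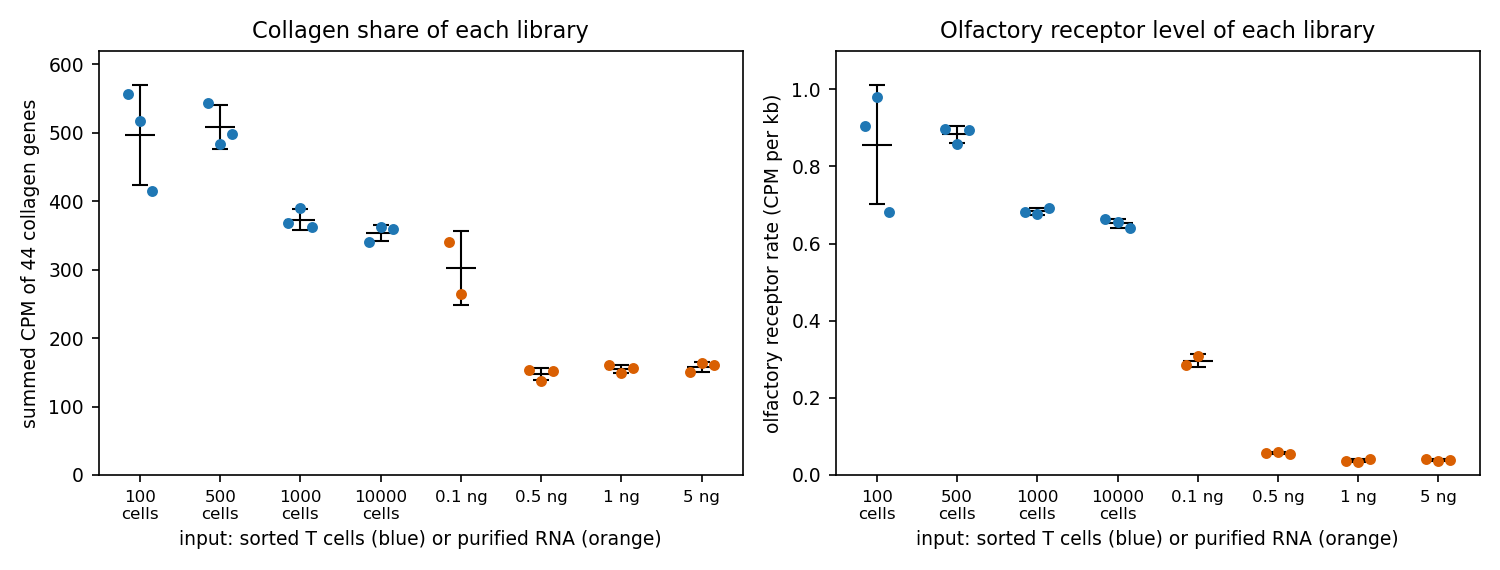
Summed CPM of the 44 collagen genes (left) and the olfactory receptor level in CPM per kb (right) for each of 23 libraries, by input. Points are libraries, bars are the mean and 1 SD. Collagen sums are 340 to 362 CPM at 10000 cells and 150 to 163 CPM at 5 ng, while the olfactory receptor level is 0.653 and 0.0388 CPM per kb.

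Read against the Olfr level of the same library, most collagen genes of T cells stood near it and many of the RNA libraries stood well above it. For each gene the CPM per kb was divided by the Olfr level of its library. The median of the 44 ratios was 1.57 at 100 cells, 1.45 at 500, 1.43 at 1000 and 1.34 at 10000. In RNA it was 2.16 at 0.1 ng, 5.1 at 0.5 ng, 9.41 at 1 ng and 8.52 at 5 ng. The quartiles of the ratios ran from 1.02 to 1.56 at 10000 cells and from 3.34 to 16.1 at 5 ng. At 10000 cells 4 genes exceeded a ratio of 2, against 36 at 5 ng. Vomeronasal receptor genes as the comparator gave medians of 1.55 and 9.14 at these inputs. With coding length in place of exon length the medians were 0.659 and 4.91. Olfr genes have a median of 2.99 kb of exon and 0.939 kb of coding sequence, collagen genes 7.54 and 4.68 kb.

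**Figure D2:**
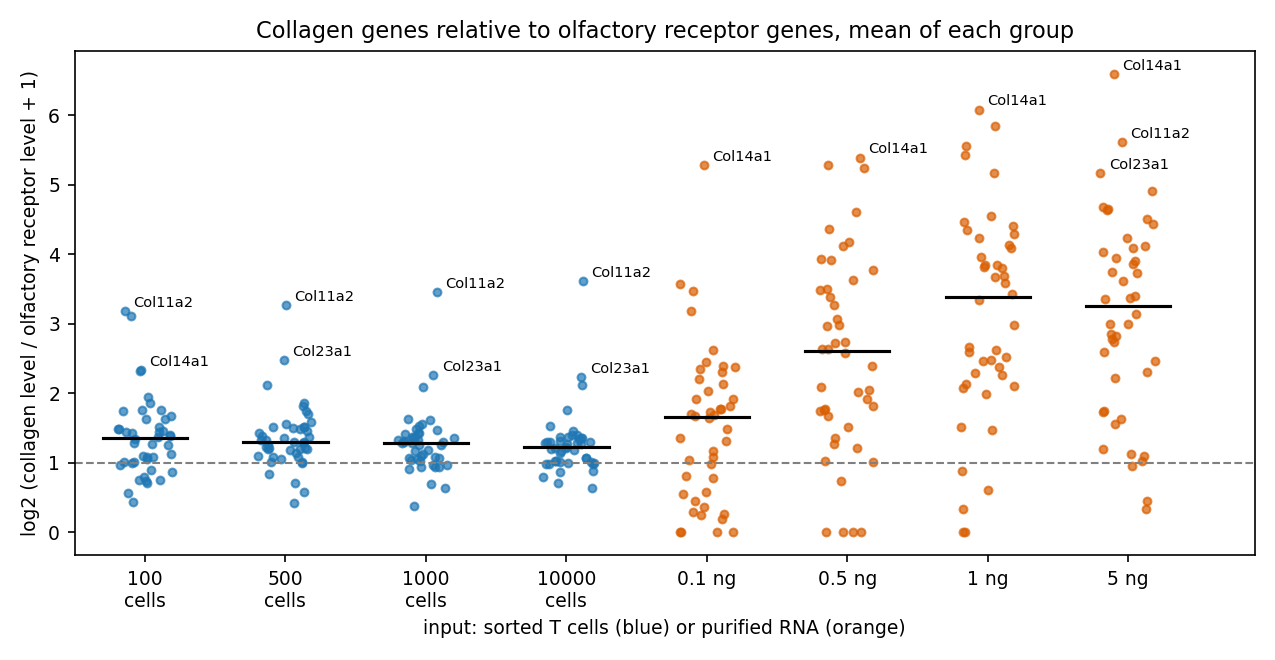
Ratio of each of the 44 collagen genes to the olfactory receptor level, as log2 (ratio + 1) of the group mean, by input. Points are genes, black bars are medians, and the dashed line is a ratio of 1. The medians are 1.34 at 10000 cells and 8.52 at 5 ng, and Col11a2 stands apart in T cells at 11.2.

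A stricter reading counted genes above the 95th percentile of Olfr genes in every library of a group. No collagen gene passed at 100 cells, and 2 genes passed at each of 500, 1000 and 10000 cells: the same pair, Col11a2 and Col23a1. At 0.1 ng only Col14a1 passed, then 11 genes at 0.5 ng, 15 at 1 ng and 20 at 5 ng. The last count is 45.5% of the collagen genes, beside 58.2% of all 22391 symbols with a length and 0.441% of Olfr genes. At 10000 cells the shares were 4.55%, 40.6% and 0%. Depth moves with these counts, since the 5 ng libraries were the deepest. Its part was not tested. The count is also sensitive to the level and length used: with the 99th percentile it was 1 at 10000 cells and 9 at 5 ng, with counts summed over the libraries 4 and 31, and with coding length 2 and 12. Leaving out 1 library gave 4 or 6 genes at 0.1 ng, and 1 gene at 100 cells without replicate 2 or 3.

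The 8 genes that passed at 0.5, 1 and 5 ng alike were Col11a2, Col5a1, Col27a1, Col4a1, Col4a2, Col14a1, Col20a1 and Col23a1. Across the 44 genes the ratios at 1 and 5 ng had a Spearman's rho of 0.875, and those at 0.5 and 5 ng of 0.842. For 10000 cells and 5 ng it was 0.121, and for 1000 and 10000 cells 0.352. These are across genes of libraries that share Olfr comparators and exon lengths, and genes are not independent replicates. The CPM of a collagen gene and its exon length had a rho of 0.218 at 100 cells, 0.587 at 500, 0.632 at 1000 and 0.637 at 10000 (44 genes). In RNA it was 0.068 at 0.1 ng, -0.0485 at 0.5 ng, -0.00944 at 1 ng and -0.0142 at 5 ng.

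Col11a2, a fibrillar collagen, had the highest level per length of the 44 genes in 10000 T cells and the second highest in 5 ng RNA. It encodes the alpha 2 chain of type XI collagen, which sits in the core of cartilage fibrils. It had 42.4, 49.6 and 58.2 CPM at 10000 cells and 45.7, 49.4 and 44.7 CPM at 1000. The values were 71, 35.7 and 50.8 CPM at 500 cells, and 110, 22.2 and 14.6 CPM at 100. In RNA it had 9.5, 11.9 and 16.7 CPM at 5 ng, 11, 11.4 and 8.73 at 1 ng, 16.1, 11.6 and 15.9 at 0.5 ng, and 0 counts in both libraries of 0.1 ng. A count of 0 over those libraries allows up to 0.811 CPM (3 counts, counting error only). The T cell libraries of 500 cells and more all lay above the RNA libraries, and the 100-cell libraries spread across both. Relative to the Olfr level the order was opposite, 11.2 ± 1.97 at 10000 cells and 47.8 ± 13.7 at 5 ng (SD, n = 3).

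Col23a1 was the second gene that passed in both materials. It encodes a transmembrane collagen, type XXIII, that can be shed from the cell surface. Its values were 16.7, 12.1 and 12.6 CPM at 10000 cells and 8.62, 8.54 and 6.07 CPM at 5 ng, which do not overlap. At 1000 cells and 1 ng it had 13.1, 15.5 and 16 against 9.86, 11.8 and 6.55 CPM. At 500 cells it had 16.5, 26.4 and 26.5 CPM against 14.4, 8.75 and 12.2 CPM at 0.5 ng. The ratio to the Olfr level was 3.69 ± 0.625 at 10000 cells and 35 ± 7.57 at 5 ng.

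Sequence upstream of the start was looked at for the genes that set the pattern: Col11a2 and Col23a1, above the Olfr level in both materials, Col5a1, above it in RNA only, and Col11a1, near it in both materials at the highest inputs. The 250 bases before the RefSeq start are given 5′ to 3′ on the gene's strand (GRCm38.p6, all on the plus strand), with GC boxes, the motif GGGCGG or its reverse complement CCGCCC, in capitals. They lie at chr17:34038888-34039137, chr11:51289670-51289919, chr2:27886175-27886424 and chr3:114030290-114030539 in the order printed, and none overlaps an annotated exon.
Col11a2: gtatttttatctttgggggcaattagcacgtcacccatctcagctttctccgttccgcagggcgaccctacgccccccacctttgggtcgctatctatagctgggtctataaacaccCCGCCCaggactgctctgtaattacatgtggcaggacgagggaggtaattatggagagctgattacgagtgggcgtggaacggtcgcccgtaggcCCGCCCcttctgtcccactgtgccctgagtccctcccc
Col23a1: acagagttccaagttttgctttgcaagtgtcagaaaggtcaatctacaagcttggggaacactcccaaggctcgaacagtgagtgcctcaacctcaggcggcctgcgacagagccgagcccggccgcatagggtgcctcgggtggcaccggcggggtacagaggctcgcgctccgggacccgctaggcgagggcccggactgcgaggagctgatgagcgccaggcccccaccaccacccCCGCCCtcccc
Col5a1: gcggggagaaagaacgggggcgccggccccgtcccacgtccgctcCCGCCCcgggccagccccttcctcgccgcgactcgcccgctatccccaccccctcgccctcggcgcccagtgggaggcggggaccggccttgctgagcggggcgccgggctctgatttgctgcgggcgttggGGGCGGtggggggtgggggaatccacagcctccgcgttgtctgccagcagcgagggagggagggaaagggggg
Col11a1: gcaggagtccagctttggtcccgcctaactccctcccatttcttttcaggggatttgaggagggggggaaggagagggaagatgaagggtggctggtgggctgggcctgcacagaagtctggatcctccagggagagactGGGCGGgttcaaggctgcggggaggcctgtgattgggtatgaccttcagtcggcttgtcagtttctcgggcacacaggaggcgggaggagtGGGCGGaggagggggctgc

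All 4 windows hold at least 1 GC box, with 1 in Col23a1 and 2 in each of the others. The table of RefSeq start windows used here matched 35 of the 44 genes by symbol. Over the 250 bases before the start, searched on both strands, a GC box was present in 60% of the 35 collagen windows and in 32.9% of all 27025 windows. It was in 70.6% of the 17 collagen genes above the Olfr level at 5 ng, in 50% of the other 18 and in 0.636% of 944 Olfr windows. The motif CCAAT was in 34.3% of collagen and 34.5% of all windows, and the motif TATAAA in 14.3% and 13%. A match is a run of letters, not a measured binding site.

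Col14a1 led the fibril-associated group and was the collagen gene with the highest level per length in RNA. It encodes type XIV collagen, which binds the surface of type I fibrils. It had 21.6, 29.5 and 26.2 CPM at 5 ng, 19, 14.7 and 17.5 at 1 ng, and 20, 11.8 and 16.2 at 0.5 ng. At 0.1 ng it had 107 and 47.2 CPM. In T cells it had 5.02, 11.6 and 3.53 CPM at 10000 cells, 3.38, 5.89 and 12.4 at 1000, 19.2, 13.6 and 14.4 at 500, and 18.7, 9.19 and 37.2 at 100. The highest of these is replicate 3 at 100 cells, the library with B cell and neutrophil transcripts. The ratio to the Olfr level was 95.6 ± 21 at 5 ng and 1.46 ± 0.927 at 10000 cells.

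Col20a1 and Col9a3 belong to the same fibril-associated group, the latter as a chain of cartilage type IX collagen. Col20a1 had 8.37, 12.4 and 12.6 CPM at 10000 cells and 2.48, 3.07 and 8.85 CPM at 5 ng, with the groups overlapping. Col9a3 had 8.09, 4.96 and 5 CPM at 10000 cells and 2.48, 4.94 and 5.44 CPM at 5 ng. At 100 cells Col9a3 had 32.2 and 43.8 CPM in replicates 1 and 2 but 5.58 in replicate 3. Its exons share 234 bases with Tcfl5 on the opposite strand, and whether counting used strand is not given in the sources used here. Col19a1 of that group had 10.6, 7.99 and 6.76 CPM at 10000 cells, all above its 1.75, 1.07 and 1.26 CPM at 5 ng.

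The other fibrillar genes above the Olfr level at 5 ng included Col27a1, Col5a1, Col5a3 and Col1a1. Col27a1, a cartilage fibrillar collagen, had 14.9, 13.7 and 8.47 CPM at 5 ng and 8.92, 13.2 and 9.99 CPM at 10000 cells. Col5a1, whose type V chain starts collagen I fibrils, had 6.28, 10 and 6.95 CPM at 5 ng and 5.3, 6.34 and 4.7 CPM at 10000 cells. Both pairs of groups overlap. Col1a1 and Col1a2 encode the chains of type I collagen, the main fibril of connective tissue. Col1a1 had 3.9 ± 1.25 CPM at 5 ng and 4.17 ± 1.96 at 10000 cells, Col1a2 2.85 ± 1.46 and 11.4 ± 3.93, a difference between the chains that was not tested. Col3a1, the type III chain of reticular fibres, had 1.37 ± 0.819 CPM at 5 ng and 9.18 ± 2.1 at 10000 cells. Relative to the Olfr level, Col1a1 stood at 15.4 ± 4.79 and 0.974 ± 0.457, Col1a2 at 5.85 ± 2.69 and 1.41 ± 0.513, and Col3a1 at 3.67 ± 2.38 and 1.43 ± 0.307.

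Basement membrane collagen IV split by chain in RNA. Col4a1 and Col4a2, the ubiquitous pair that lie head to head and share 22 exon bases on opposite strands, stood at 13.5 ± 3.94 and 16.3 ± 5.55 times the Olfr level at 5 ng. Col4a3 to Col4a6, found in kidney and other specialised membranes, stood between 0.369 (Col4a5) and 6.08 (Col4a4). Exons of Col4a3 share 563 bases with a transcript on the opposite strand. In 10000 T cells all 6 chains lay between 0.973 and 1.59. Collagen VI genes ranged from 5.65 to 9.53 times the Olfr level at 5 ng, with Col6a6 alone passing the 95th percentile in every library, and from 0.988 to 1.45 in 10000 T cells. The multiplexins Col15a1 and Col18a1, basement membrane collagens whose ends can be released as fragments, both passed at 5 ng, at 11.3 ± 1.54 and 16 ± 6.6. The anchoring fibril gene Col7a1 passed too, at 17.7 ± 2.01, against 1.55 ± 0.251 at 10000 cells. Among the transmembrane genes Col13a1 and Col17a1 passed beside Col23a1, and of the hexagonal network genes only Col8a2.

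**Figure D3:**
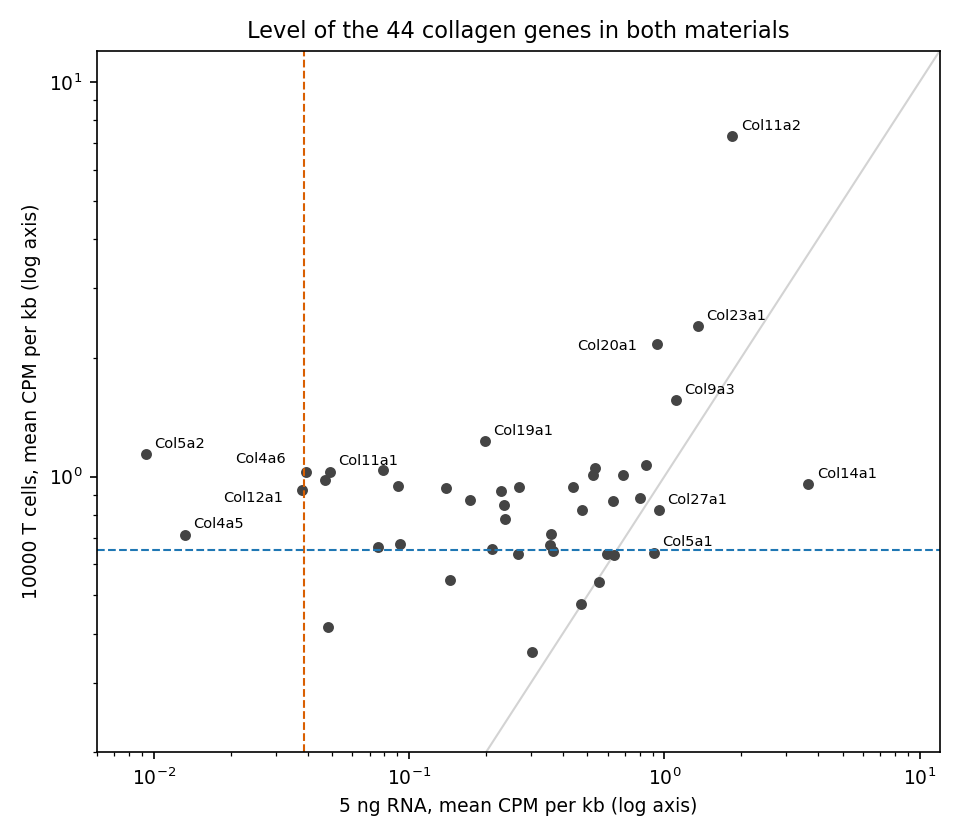
Mean level of each collagen gene in CPM per kb of exon at 10000 T cells against 5 ng RNA, both axes logarithmic. The grey line marks equal levels, and dashed lines mark the olfactory receptor level, 0.653 for T cells (blue) and 0.0388 for RNA (orange). Most T cell levels lie close to the blue line, while RNA levels spread from 0.00928 (Col5a2) to 3.67 (Col14a1).

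The test of each gene between 10000 T cells and 5 ng RNA asked which chains differed with the material, on the total-count scale (edgeR's quasi-likelihood test with TMM factors, Benjamini-Hochberg adjustment over 14425 genes, threshold 0.05). Of 41 collagen genes that passed the filter on low counts, 21 were higher in T cells and Col14a1 was lower, whereas after scaling to Olfr counts 1 was higher and 31 were lower. A gene with few counts in 1 material passed that filter through the other, so its direction was largely set in advance. Over all genes 28.7% were called higher and 27.3% lower. Under Olfr scaling 1.46% of all genes were called higher and 91.6% lower. The median log2 difference was 0.99 for the collagen genes and 0.03 for all genes, and under Olfr scaling -2.96 and -3.93. The scaling moved all genes by almost the same step, and relative to all genes the collagen median was above in both. This is not particular to collagen genes, since the tested Olfr genes lay further above. Of the 1134 Olfr genes 213 were tested, and 97.7% of these were called higher in T cells, with a median log2 difference of 4.86. Under Olfr scaling their median was 1.16, with 33.8% higher and 6.57% lower. Of the 22 genes called, 2 kept the call and direction under Olfr scaling, Col5a2 and Col14a1, and 11 were called the opposite way. Material, input form, depth and library differ together between these groups and cannot be told apart.

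Col14a1 was lower in T cells under both scalings. The difference was -2.04 on the log2 scale (SE 0.269, adjusted p = 1.98e-09, edgeR), at 6.71 ± 4.28 CPM against 25.8 ± 3.95, with no overlap. Col14a1 was also called lower under Olfr scaling (adjusted p = 2.7e-132, edgeR), as were 91.6% of all genes. That scaling moved all genes down by almost the same step, so its call is not separate support. Col5a2, the second chain of type V collagen, went the other way in both. It had 7.25, 13 and 12.6 CPM (116 counts) at 10000 cells and 0, 0.267 and 0 CPM (2 counts) at 5 ng. That is a ratio of 122 with a counting interval of 32.9 to 1015.4 (exact, 95%), an adjusted p of 3.1e-11 in edgeR, and 0.00453 under Olfr scaling. Its ratio to the Olfr level was 1.75 ± 0.531 in 10000 T cells and 0.259 ± 0.448 in 5 ng RNA. At 1000 cells and 1 ng the order was opposite, at 1.13 ± 0.42 and 5.17 ± 2.18. There Col5a2 was called lower in T cells under Olfr scaling.

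The other 5 largest differences belonged to genes at 1.1 to 1.59 times the Olfr level in T cells and 0.369 to 1.3 times in RNA. These genes and Col5a2 had 2 to 14 counts each over the 3 libraries of 5 ng. They passed the filter on low counts through the T cell libraries alone, so their higher calls are not separate support. Col4a5, a basement membrane chain, had 2.79, 2.76 and 8.82 CPM in 10000 T cells and 2 counts in all at 5 ng, a ratio of 52.4 (13.8 to 444). Col12a1, a fibril-associated collagen of tendon and muscle, had 14.5, 11.3 and 16.5 CPM against 1.61, 0.133 and 0 CPM. Its log2 difference was 4.51 (SE 0.565) on the total-count scale and 0.62 (SE 0.619) under Olfr scaling. Col4a6 had 6.13, 7.44 and 11.2 CPM against 0.292, 0.4 and 0.253 CPM, with differences of 4.50 and 0.63. For Col11a1, the partner of Col11a2 in type XI collagen, the values were 14.8, 15.4 and 9.11 against 0.292, 1.07 and 0.506 CPM, with 4.23 and 0.29. Col9a1 had 6.97, 4.96 and 2.94 against 0.585, 0 and 0.126 CPM, with 4.21 and 0.38. All 5 were called higher on the total-count scale and none under Olfr scaling.

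Genes named for their level moved by almost the step of all genes between the scalings. The log2 difference of Col11a2 was 1.86 (SE 0.19, adjusted p = 5.87e-13) on the total-count scale and -2.10 (SE 0.228, adjusted p = 4.07e-20) under Olfr scaling. For Col23a1 it was 0.73 (SE 0.295, adjusted p = 0.031) and -3.23 (SE 0.333), and for Col20a1 1.08 (SE 0.386, adjusted p = 0.0141) and -2.86 (SE 0.401). Col27a1 (-0.31, SE 0.283), Col5a1 (-0.62, SE 0.376), Col9a3 (0.37, SE 0.438) and Col1a1 (-0.03, SE 0.493) did not pass on the total-count scale, and all were called lower under Olfr scaling. The calls of Col20a1, Col23a1 and Col6a4 on the total-count scale were each lost without some single library.

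**Figure D4:**
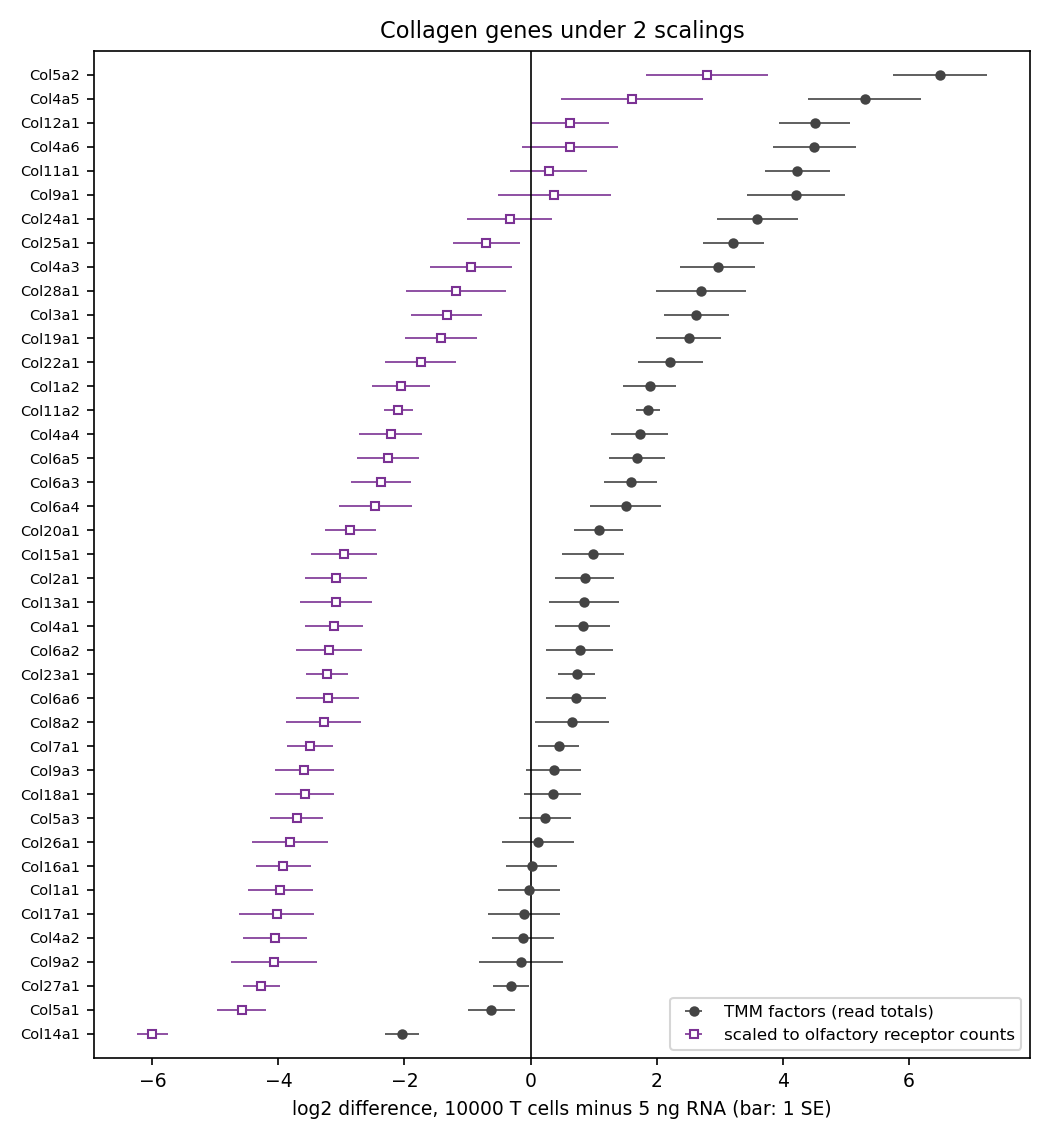
Log2 difference of 10000 T cells minus 5 ng RNA for the 41 collagen genes tested, with bars of 1 SE, on the total-count scale (filled) and after scaling to olfactory receptor counts (open). The medians are 0.99 and -2.96. Col14a1 is below 0 and Col5a2 above 0 in both.

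By role, on the total-count scale, 6 of 11 fibrillar, 4 of 6 collagen IV, 3 of 5 collagen VI, 5 of 9 fibril-associated, 2 of 4 transmembrane and 1 of 2 other collagen genes were higher in 10000 T cells. None of the 2 multiplexin genes and neither Col7a1 (anchoring fibril) nor Col8a2 (hexagonal network) was called. Under Olfr scaling the lower calls numbered 8, 3, 5, 7, 3 and 1 of the genes in the first 6 groups, and took in all 4 of the others. All genes tested were called higher in 28.7% and lower in 91.6% under these scalings.

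The same test was run at the lower inputs, whose libraries had no part in it above. Between 1000 T cells and 1 ng RNA, 16 of 35 collagen genes were higher and Col14a1 lower on the total-count scale, and under Olfr scaling 1 was higher and 29 lower. All genes were called higher in 20.1% and lower in 20%, and under Olfr scaling in 1.27% and 93.8%. Col11a1 had 15.2, 14.4 and 17.2 CPM at 1000 cells and no count at 1 ng, so it was at least 65.4-fold higher (floor of 3 counts over the group) and was called higher in both scalings. It passed the filter on low counts through the T cell libraries alone, and its ratio to the Olfr level there was 1.79 ± 0.144. Col4a6 had 58 counts against 1, a ratio of 96.4 (16.6 to 3873.6). Col4a5 (log2 3.92, SE 0.927) and Col12a1 (3.52, SE 0.496) were higher on the total-count scale and at -0.20 and -0.64 under Olfr scaling. Col4a6, Col4a5 and Col12a1 also passed the filter through the T cell libraries alone. Col14a1 was at -1.24 on the log2 scale (SE 0.434, adjusted p = 0.0244, edgeR), a call that was lost without RNA replicate 1 or 3 or T cell replicate 1 or 2, each left out alone.

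Between 500 T cells and 0.5 ng RNA, 21 of 39 collagen genes were higher and 0 lower, and under Olfr scaling 4 were higher and 18 lower. All genes were called higher in 19% and lower in 18.1%, and under Olfr scaling in 1.8% and 90.2%. The 4 were Col4a6, Col28a1, Col5a2 and Col8a1, all without a count in the 3 libraries of 0.5 ng. Against the floor they were at least 62.7-fold, 46.1-fold, 44.4-fold and 21.6-fold higher in T cells. They passed the filter on low counts through the T cell libraries alone. Their mean ratios to the Olfr level at 500 cells were 2.24, 2.62, 1.27 and 0.783, in the same order. Col14a1 did not pass the test here, at 15.7 ± 3.04 and 16 ± 4.11 CPM (log2 -0.04, SE 0.413), and was called lower under Olfr scaling (-4.00).

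Across the 3 comparisons, which share no library, 13 genes were higher in T cells each time on the total-count scale: Col4a3, Col4a4, Col4a5, Col4a6, Col6a3, Col6a4, Col6a5, Col5a2, Col11a1, Col11a2, Col12a1, Col22a1 and Col24a1. They are 39.4% of the 33 collagen genes tested in all 3, beside 10.6% of the 11896 genes tested in all 3, and 26 collagen genes were higher in at least 1. Among the 13, Col4a5, Col4a6 and Col11a1 passed the filter on low counts through the T cell libraries alone each time. Col4a6 had 0, 1 and 7 counts over the libraries of 0.5, 1 and 5 ng. Such genes could hardly be called lower, so the larger share is not separate support for a trait of collagen genes. Under Olfr scaling none was higher in all 3 and 16 were lower in all 3, 48.5% of those tested beside 93.9% of all genes, among them Col1a1, Col1a2, Col4a1, Col4a2, Col5a1, Col11a2, Col14a1 and Col23a1.

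At the smallest inputs, 100 T cells and 0.1 ng RNA, 0 of 36 collagen genes were called by edgeR, beside 0.0535% of all genes. DESeq2 called 2 (5.3% of all genes), and 5 had an unadjusted p under 0.05 in edgeR, 13.9% of those tested beside 15.7% of all genes. Col11a2 came closest, with 308 counts against 0 (adjusted p = 0.147), and Col14a1 had 21.7 ± 14.3 CPM (n = 3) against 77.1 ± 42.3 (n = 2; log2 -1.80, SE 0.666, adjusted p = 0.266, edgeR). Without T cell replicate 3 Col11a2 was called.

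**Figure D5:**
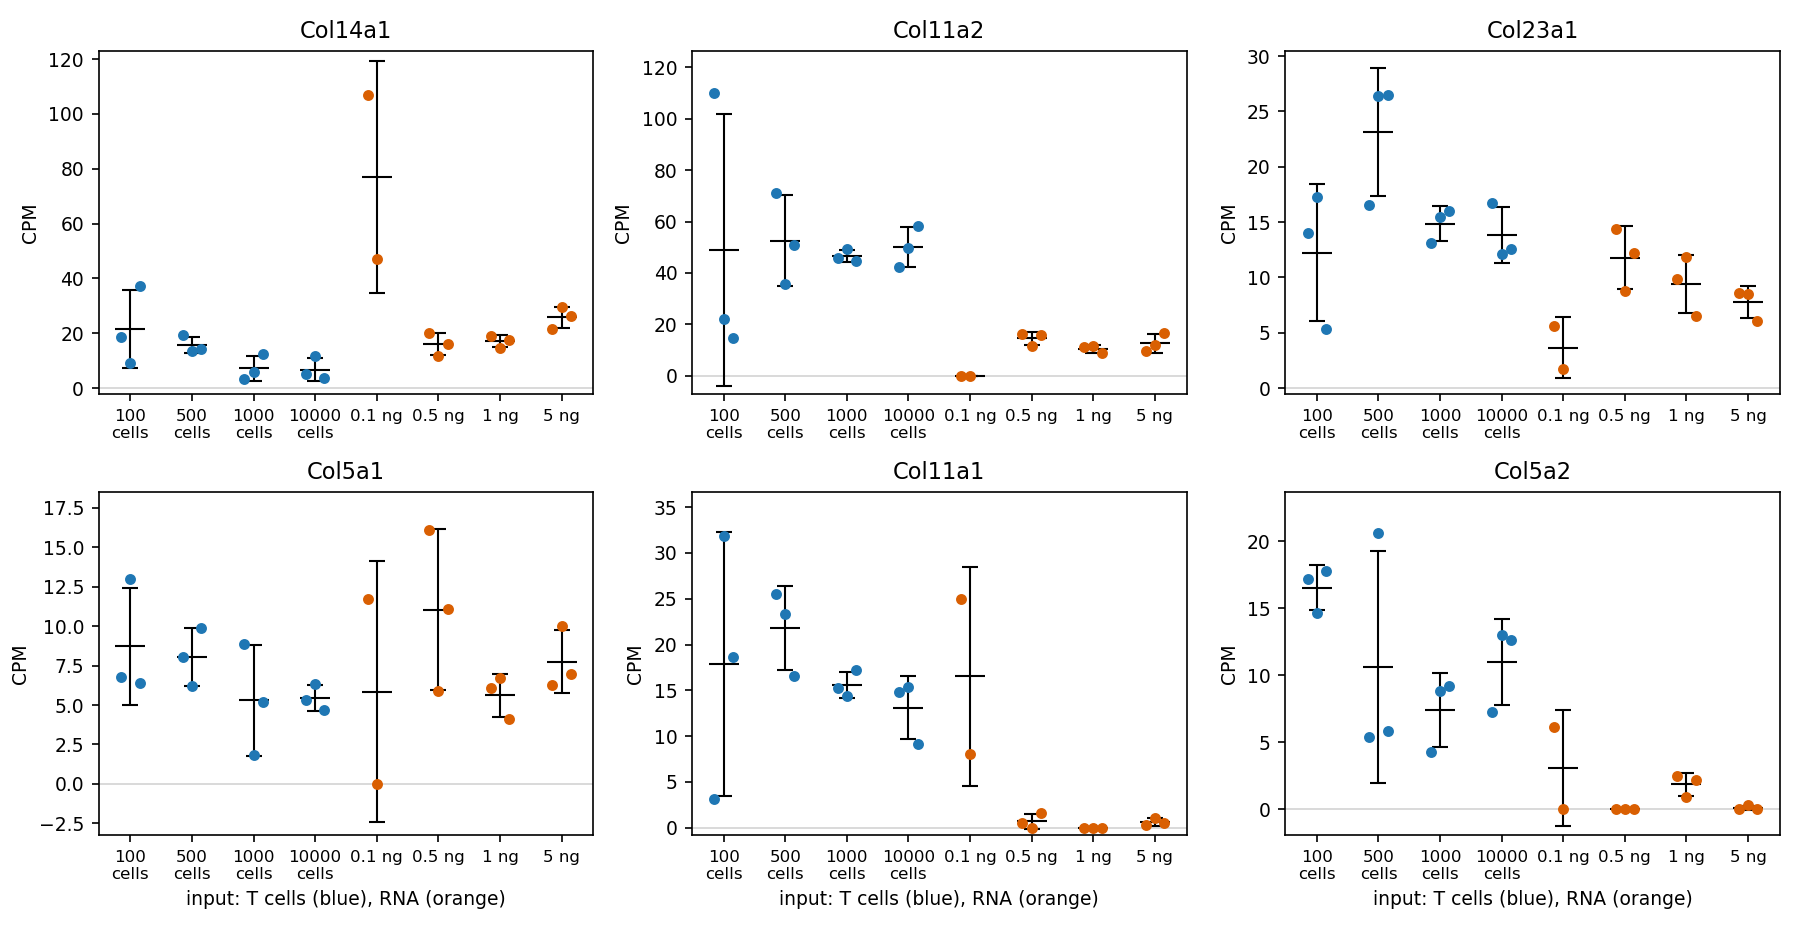
CPM of 6 collagen genes in each of 23 libraries by input, with points for libraries and bars for the mean and 1 SD. Col14a1 has 21.6 to 29.5 CPM at 5 ng and 3.53 to 11.6 at 10000 cells. Col11a2 has 42.4 to 58.2 CPM at 10000 cells and no count at 0.1 ng. Col11a1 and Col5a2 are near 0 in RNA from 0.5 ng up, save for Col5a2 at 1 ng, with a mean of 1.85 CPM.

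Within T cells, the number of cells moved no collagen gene past the threshold. Against 10000 cells, edgeR called 0 of 42 at 100 cells, 0 of 39 at 500 and 0 of 38 at 1000, beside 0%, 3.21% and 3.27% of all genes. DESeq2 called 1, 1 and 0, beside 2.95%, 4.14% and 7.08% of all genes, but gave an adjusted p to only 1 of the 38 at 1000 cells. An unadjusted p under 0.05 in edgeR was met by 4, 7 and 2 genes, all higher at the lower input. That is 9.52%, 17.9% and 5.26% of those tested, beside 12%, 16.6% and 15.4% of all genes, so the collagen genes were near or under the share of all genes. At 100 cells the 4 were Col9a3, Col16a1, Col14a1 and Col17a1. Col16a1, a fibril-associated collagen, had 35.9, 8.65 and 22.3 CPM at 100 cells against 5.96 ± 1.38 at 10000 (log2 1.89, SE 0.593, adjusted p = 0.261, edgeR). Col17a1, the transmembrane collagen of hemidesmosomes, had 15.1, 8.11 and 18.3 CPM against 2.85 ± 1.41 (2.26, SE 0.674, adjusted p = 0.247). At 500 cells Col4a3 came nearest, at 17.6 ± 5.27 against 6.63 ± 1.7 CPM (1.39, SE 0.419, adjusted p = 0.0731). As a set, the tested collagen genes had a median log2 difference of 0.51 at 100 cells and 0.55 at 500, beside 0.04 and 0.03 for all genes. For the tested Olfr genes the medians were 0.44 and 0.52. The Olfr level moved alongside, from 0.653 CPM per kb at 10000 cells to 0.883 at 500, and its part was not tested. Col9a3 was called at 100 cells without replicate 3, and at 500 cells Col28a1 without replicate 1 and Col4a3 without replicate 2.

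Within RNA, 3 of 36 collagen genes were called between 0.1 and 5 ng, where 4.69% of all genes were higher and 6.55% lower at 0.1 ng. Col11a1 was higher at 0.1 ng, with 25 and 8.06 CPM against 0.622 ± 0.401 (log2 4.62, SE 0.844, adjusted p = 0.0311, edgeR), and at 1.77 under Olfr scaling (adjusted p = 0.121). Col28a1 had 6.11 and 5.76 CPM against 0.452 ± 0.165 (3.60, SE 0.742, adjusted p = 0.0373), and 0.78 under Olfr scaling. Col11a1 and Col28a1 passed the filter on low counts here through the 0.1 ng libraries alone. Col11a2 was lower, with no count at 0.1 ng and 286 counts at 5 ng, at least 15.9-fold, and stayed called under Olfr scaling. All 3 calls were lost when any 1 of the 5 ng libraries was left out, while 18 genes were called without 0.1 ng replicate 1 and 17 without replicate 2, where the lone library is assumed to vary like the others. Col14a1 had 107 and 47.2 CPM at 0.1 ng against 25.8 ± 3.95 at 5 ng (1.53, SE 0.371, adjusted p = 0.051). Only 29 and 33 of the 44 genes had a count at 0.1 ng, against 39 to 42 at 5 ng. For 0.5 and 1 ng against 5 ng, edgeR called 0 of 28 and 0 of 27 genes, beside 5.09% and 0.0238% of all genes. DESeq2 called 1 and 0, beside 6.73% and 0.233% of all genes, but gave an adjusted p to only 3 of the 27 at 1 ng. An unadjusted p under 0.05 in edgeR was met by 3 genes in each, 10.7% and 11.1% of those tested beside 18.7% and 10.4% of all genes. Col14a1 was among the 3 at both inputs, with 16 ± 4.11 CPM at 0.5 ng and 17.1 ± 2.18 at 1 ng (log2 against 5 ng -0.69 and -0.60, adjusted p = 0.109 and 0.301, edgeR). At 0.5 ng Col14a1 was called without 0.5 ng replicate 1, and Col4a4 and Col5a3 were called without replicate 3.

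Genes that build, bind and break down collagen were read in the same comparison of 10000 T cells with 5 ng RNA, beside the 28.7% of all genes called higher, 27.3% called lower and 91.6% called lower under Olfr scaling. Of the 14 chain modification and folding genes tested, 5 were higher and 4 lower in T cells (35.7% and 28.6%), and under Olfr scaling 13 were lower (92.9%), all near the shares of all genes. P4hb, a subunit of prolyl 4-hydroxylase, had 210 ± 12.6 against 267 ± 11.9 CPM (log2 -0.45, SE 0.0644). Plod3, a lysyl hydroxylase, had 17.4 ± 2.48 against 37.4 ± 5.77 CPM (-1.21, SE 0.185), and Crtap of the prolyl 3-hydroxylase complex 9.2 ± 1.37 against 13.5 ± 1.33 CPM (-0.67, SE 0.276). All 3 were called lower, and stood at -4.42, -5.17 and -4.62 under Olfr scaling. Colgalt1, which adds galactose to hydroxylysine, was lower as well at 110 ± 8.6 against 159 ± 10.4 CPM (-0.65, and -4.61 under Olfr scaling). Mia3, which loads procollagen for export, did not pass at 153 ± 9.92 and 137 ± 5.35 CPM (0.05, and -3.92 under Olfr scaling). P4ha3, an alpha subunit of prolyl 4-hydroxylase, was higher at 3.31 ± 0.712 against 0.315 ± 0.0764 CPM, and Colgalt2 at 3.12 ± 0.388 against 0.525 ± 0.534 CPM, with -0.67 and -1.53 under Olfr scaling.

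Of 13 processing and crosslinking genes, 5 were higher and 2 lower in T cells (38.5% and 15.4%, beside 28.7% and 27.3% of all genes), and 11 were lower under Olfr scaling (84.6%, beside 91.6%). Lox, which crosslinks fibrils, had 3.56 ± 1.19 against 0.436 ± 0.405 CPM and Tll1, a procollagen C-proteinase, 6.5 ± 0.826 against 0.244 ± 0.422 CPM. Their differences of 2.83 and 4.59 became -1.08 and 0.76 under Olfr scaling. Loxl3, another lysyl oxidase, and Pcolce2, an enhancer of C-proteinase, were called lower (-1.42 and -0.82) and stood at -5.36 and -4.78 under Olfr scaling. Bmp1, the main C-proteinase, had 4.81 ± 0.786 and 4.09 ± 0.176 CPM and the N-proteinase Adamts14 9.31 ± 1.84 and 12.7 ± 1.55 CPM, and neither passed.

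Of 10 receptors, 3 were higher and 3 lower (30% each way), and 9 were lower under Olfr scaling (90%), shares close to those of all genes. Itgb1, the shared integrin beta 1 chain, was lower in T cells at 190 ± 16.3 against 323 ± 7.55 CPM, as was the inhibitory receptor Lair1 at 18.8 ± 2.25 against 54.6 ± 5.62 CPM and the platelet receptor Gp6 at 2.07 ± 0.626 against 5.24 ± 1.51 CPM. Their log2 differences were -0.87, -1.65 and -1.43, and -4.84, -5.60 and -5.37 under Olfr scaling. The higher receptors were Ddr2, a collagen-binding tyrosine kinase, at 5.87 ± 1.45 against 0.715 ± 0.422 CPM, the integrin chain Itga10 at 7.36 ± 1.38 against 2.41 ± 0.711 and its relative Itga1 at 18.3 ± 1.34 against 10.4 ± 0.803. Under Olfr scaling their log2 differences were -1.05, -2.44 and -3.26. Itga2 did not pass, at 12.5 ± 1.96 and 15 ± 3.35 CPM.

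Of 6 breakdown genes tested, 2 were lower and 0 higher by edgeR (33.3% lower, beside 27.3% of all genes; 3 had an unadjusted p under 0.05), and all 6 were lower under Olfr scaling. The neutrophil enzymes Mmp8 (2.86 ± 2.48 against 70.6 ± 3.33 CPM) and Mmp9 (5.69 ± 3.56 against 143 ± 7.08 CPM) were those 2. Timp2, an inhibitor of such enzymes, had 66.5 ± 7.35 and 61.6 ± 5.82 CPM and did not pass. Neutrophil markers differed in the same direction, at 38.3 against 4594.4 CPM, and their part was not tested.

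Of 18 matrix partners, 6 were higher and 4 lower in T cells (33.3% and 22.2%, beside 28.7% and 27.3% of all genes), and 15 were lower under Olfr scaling (83.3%, beside 91.6%). Fibronectin, Fn1, had 18.1 ± 5.05 against 161 ± 18.7 CPM, and the basement membrane genes Nid1 and Lamc1 had 3.91 ± 2.68 against 25.6 ± 3.93 and 12.8 ± 2.23 against 37.9 ± 3.88 CPM. Their log2 differences were -3.27, -2.83 and -1.68, and -7.24, -6.78 and -5.64 under Olfr scaling. Dcn and Lama4 were higher at 4.05 ± 0.128 against 0.449 ± 0.306 and 9.32 ± 3.18 against 1.02 ± 1.24 CPM, and not under Olfr scaling (-0.91 and -0.92). Of 6 stromal markers tested, Pdgfra alone was called higher (1.86, SE 0.558), and under Olfr scaling it was at -2.10. The stromal genes Myh11 (7.2 ± 3.14 and 3.56 ± 1.03 CPM) and Cxcl12 (3.86 ± 0.772 and 4.44 ± 0.337 CPM) did not pass. Relative to the Olfr level the 11 stromal genes had a median ratio of 0.86 at 10000 cells and 7.03 at 5 ng. Of these 11, 0 and 6 lay above the 95th percentile of Olfr genes in every library, beside 40.6% and 58.2% of all symbols. Of the 9 endothelial markers 2 were higher and 4 lower in T cells, and under Olfr scaling 1 was higher and 7 lower. Their median ratio to the Olfr level was 1.42 at 10000 cells and 21.6 at 5 ng, with 1 and 7 genes above that percentile. Vwf (11.5 ± 2.13 against 28.3 ± 3.75 CPM), Stab2 (13.4 ± 3.73 against 32.2 ± 3.33), Esam (1.47 ± 1.87 against 4.66 ± 1.39) and Pecam1 (208 ± 4.35 against 225 ± 12.4) were lower. Tek was higher at 5.5 ± 2.67 against 0.581 ± 0.522 CPM, and at -0.81 under Olfr scaling. Emcn had 54 counts in 10000 T cells (5.04 ± 1.9 CPM) and none at 5 ng, at least 37.7-fold higher (floor of 3 counts over the group), and was called higher under Olfr scaling too. It passed the filter on low counts through the T cell libraries alone. In bulk libraries such as these, fewer cells of a type and less RNA per cell cannot be told apart.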

How the data were processed

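Whole-number read counts per gene symbol were deposited by the authors, not normalized. The submitters' processing notes list HISAT2 2.1.0, featureCounts (version not given in the sources used here) and build mm8. Of the nonzero counts of a library 57.9% to 70.7% were even, so both mates of a pair may have been counted. Intervals cover counting error only and take each count as independent, so they are too narrow if both mates were counted. CPM is a count over its column total. Exon lengths came from GENCODE on GRCm38, which matched 99.6% of symbols by name, and no coordinates of that build are joined to the counts. The members and gene lists were chosen with earlier results of these data known.

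Pairs of groups were fitted with edgeR 4.0.16 in R 4.3.3 (quasi-likelihood, TMM, edgeR's filter on low counts, Benjamini-Hochberg over all genes tested, threshold 0.05), with only the libraries compared. SE is the size of the log2 difference over the square root of F. For Olfr scaling, summed Olfr counts replaced the library size. The edgeR fit with TMM factors was tested on simulated counts for some of these pairs, not for all. The fits with Olfr scaling, DESeq2 and the interaction test were not tested in this way.

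Genes named in full were the 6 highest per kb in 10000 cells and in 5 ng and up to 6 largest called changes each way between them. Other comparisons gave up to 4 each way, and lists of collagen biology, stroma and endothelium their 3 highest and up to 2 called changes each way. Markers of blood cells are given as sums only. Further collagen genes were named by role. Where a group had no count, folds are lower bounds against 3 counts over the group, and with 1 to 3 counts a ratio with a 95% interval is given. A tested gene with no count or few counts in 1 group passed the filter through the other group alone. Alternatives were DESeq2 1.42.0, its size factors, library totals, no filter, a replicate block, 1 fit per material and leaving out each library. Coding length, vomeronasal receptors and the interaction test were chosen after seeing the data.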

Additional observations from a re-analysis of the deposited data

Results flagged for a closer look

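The difference between T cells and RNA was not the same size at every pair of inputs for 2 collagen genes, by an edgeR interaction test over all genes that was chosen after seeing the data. For Col5a2 the log2 difference of 1000 cells and 1 ng was smaller than that of 10000 cells and 5 ng by an interaction of -4.48 (adjusted p = 0.0249). It was 1 of 42 collagen genes tested, beside 209 called of all 15190 genes. Col5a2 had 23 counts over the 3 libraries of 1 ng and 2 counts over those of 5 ng. For Col14a1 the difference of 500 cells and 0.5 ng exceeded that of 10000 cells and 5 ng by 1.96 (adjusted p = 0.0322). It was 1 of 43 collagen genes tested, beside 302 called of all 15493 genes. A single call in each is too few to set collagen genes apart from all genes. Col14a1 had 15.7 ± 3.04 CPM at 500 cells and 6.71 ± 4.28 at 10000 cells, and 16 ± 4.11 at 0.5 ng and 25.8 ± 3.95 at 5 ng (SD, n = 3). No collagen gene of the 42 tested was called when 100 cells and 0.1 ng were set against the highest inputs, where 194 of all 17022 genes were called.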

How the results depend on the processing

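Scaling to Olfr counts turned the sign of 30 of the 53 log2 differences recomputed. Between 10000 cells and 5 ng it left 1 gene higher and 31 lower, beside 1.46% and 91.6% of all genes. Between 1000 cells and 1 ng it called 30, beside 12036 of all 12656 genes. For 100 cells against 0.1 ng it called 2 collagen genes, beside 3511 of all 13073 genes. It called 18 for 0.1 against 5 ng and 4 for 0.5 against 5 ng, where the shares of all genes are not given here. Log2 differences above 0 on the total-count scale turned negative for 28 genes named between 10000 cells and 5 ng: Col24a1 -0.33, Col25a1 -0.70, Col4a3 -0.94, Col28a1 -1.18, Col3a1 -1.33, Col19a1 -1.42, Col22a1 -1.74, Col1a2 -2.05, Col11a2 -2.10, Col4a4 -2.22, Col6a5 -2.26, Col6a3 -2.37, Col6a4 -2.46, Col20a1 -2.86, Col15a1 -2.96, Col2a1 -3.08, Col13a1 -3.09, Col4a1 -3.12, Col6a2 -3.20, Col6a6 -3.22, Col23a1 -3.23, Col8a2 -3.28, Col7a1 -3.50, Col18a1 -3.58, Col9a3 -3.59, Col5a3 -3.71, Col26a1 -3.82 and Col16a1 -3.92. Between 1000 cells and 1 ng Col12a1 (-0.64) and Col4a5 (-0.20) turned too. The scaling itself moved the median of all genes from 0.03 to -3.93 in the first comparison and from 0.04 to -4.17 in the second.

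DESeq2 called 2 genes for 100 cells against 0.1 ng, 1 for 100 and 1 for 500 against 10000 cells, 7 for 0.1 against 5 ng and 1 for 0.5 against 5 ng. In the same order it called 5.3%, 2.95%, 4.14%, 21.4% and 6.73% of all genes. Without the filter 2 were called for 100 cells against 0.1 ng and 1 for 0.5 against 5 ng. With the replicate number as a block 3 genes were called for 100 cells against 0.1 ng, 0 for 0.1 against 5 ng and 14 for 1000 cells against 1 ng, and the other counts of calls did not move. The numbers do not pair the libraries, since correlations of residuals between libraries of the same number ran from -0.016 to 0.0204 over 28 pairs. The cause of these shifts was not tested. Shares of all genes called without the filter or with the block are not given here, so those counts describe the collagen genes alone. DESeq2's size factors, library totals and 1 fit per material kept every count of calls within 1.5 times.

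Leaving out 1 library gave 20 to 22 genes higher and 1 lower for 10000 cells against 5 ng, 14 to 17 called for 1000 cells against 1 ng and 17 to 23 for 500 cells against 0.5 ng. The ranges were 0 to 1 for 100 cells against 0.1 ng and for 100 and 500 against 10000 cells, 0 to 18 for 0.1 against 5 ng and 0 to 2 for 0.5 against 5 ng, and 0 throughout for 1000 cells and for 1 ng. The libraries of 0.1 ng held 1737067 and 1962934 counts and detected 33 and 29 collagen genes, while replicates 1 and 2 of 100 cells held 1923669 and 1849181 and detected 41 and 40. The part of depth was not tested. Shares of all genes called with 1 library left out are not given here, so those ranges describe the collagen genes alone.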
